A study of Mus musculus with 10 samples.

Results

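Interleukins are secreted messengers of the immune system, and each acts on cells that carry a matching set of receptor chains. Most of these receptors are built from a private chain that binds the ligand and a shared chain that carries the signal, such as the common gamma chain encoded by Il2rg, the gp130 chain encoded by Il6st and the IL-10 receptor beta chain encoded by Il10rb. Chain pairing decides the response: the IL-2 receptor alpha chain (CD25) raises the affinity for IL-2, while the beta and gamma chains carry the signal through the kinases JAK1 and JAK3 to STAT5. Microglia, the resident macrophages of the retina, are known to respond to IL-10, IL-4, IL-13 and IL-6.

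The genes described here are the rows of a count table whose symbol starts with Il and a digit, leaving out the IL-1 genes Il1a, Il1b, Il1rn, Il1r1, Il1r2 and Il1rap as well as Il18, Il18bp, Il34, Il3ra and Il4i1. There are 71 such genes among 21866 symbols. RNA sequencing was done on 10 libraries of mouse retinal cells: live cells positive for CD11b with an intermediate level of CD45, which the labels call microglia, sorted by flow cytometry into those with the scavenger receptor CD36 (5 libraries, numbered 1, 2, 3, 4 and 7 in the columns of the table) and those without it (5 libraries, numbered 1, 2, 4, 7 and 8 there). The sample titles number each group from 1 to 5, so the libraries are called here by their column numbers. The titles of all 10 samples read WT. The labels' protocol describes mice given 20 mg/kg of sodium iodate, which damages the retinal pigment epithelium, or saline, with eyes taken 7 days later, but does not say which of these the 10 sorted samples received; age, sex and any pooling of animals are not given in the sources used here. Nothing in the labels says that replicates came from separate mice, so p-values measure only the spread between these samples.

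Total counts ran from 5001413 to 13250312 per library, with CD36-positive libraries 1 and 3 the shallowest at 5001413 and 6904195. These libraries also stood apart on principal components 2 and 3 (15.9% and 12.3% of the variance). A count of 3, the limit that a count of 0 allows, corresponds to 0.238 to 0.558 CPM (counts per 1e6 counts of a library), and this covers counting error only. Cd36 itself, the gene of the sorting marker, ran from 170 to 255 CPM in the CD36-positive and from 41.8 to 55.3 CPM in the CD36-negative libraries. The microglia markers were present in both groups: 0 of 11 passed the test, and their summed level was 8641 to 18835 CPM in CD36-positive and 8048 to 19178 CPM in CD36-negative libraries. The gate also held RNA of other leukocytes, as described beside the receptors below.

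Of the 71 genes, 27 had enough counts to be tested, 35 had some counts but too few, and 9 were at 0 in all 10 libraries. Among the tested genes, 1 was higher in CD36-positive cells (Il2ra) and 4 were lower (Il2rb, Il18rap, Il27ra and Il17ra), at an adjusted p under 0.05 in edgeR's quasi-likelihood test over all 11594 genes. Over all genes tested, 7.36% were called, 2.61% as higher and 4.74% as lower. All 5 of the called genes encode receptor chains. None of the 5 tested ligand genes passed, with edgeR, DESeq2 or limma. At an unadjusted p under 0.05 in edgeR, 1 of the 27 genes was higher and 7 were lower, Il12b being the one ligand among them, against 10.6% and 10.8% of all genes. The same 5 genes, and no others, were the tested ones whose 2 groups of libraries did not overlap, against 2.59% (higher) and 5.81% (lower) of all genes. The median log2 fold change of the 27 was -0.33, against 0.02 over all genes; Il27ra, Il2rb and Il12rb2 reached the filter on low counts almost only through the CD36-negative libraries, so these counts and this median describe the genes that passed it and support nothing further.

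**Figure D1:**
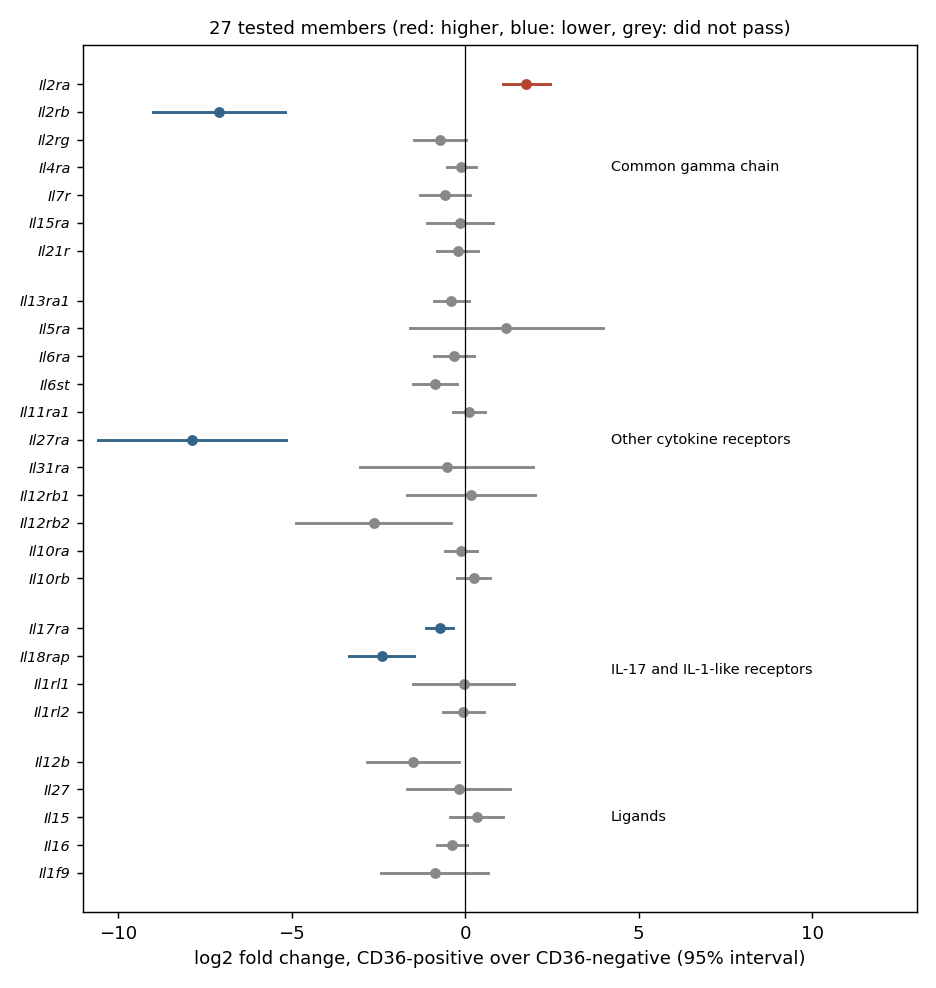
Log2 fold change of CD36-positive over CD36-negative cells for the 27 tested genes, by role, with 95% confidence intervals from edgeR (n = 5 libraries per group). Il2ra stands at 1.76, the called genes Il2rb, Il27ra, Il18rap and Il17ra lie between -7.88 and -0.74, and the other 22 (grey) did not pass.

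The promoters of 3 genes that the results turn on are shown first: Il2ra, which was higher, Il18rap, which was lower, and Il2rg, which encodes the chain that completes the IL-2 receptor and did not pass. The called genes Il2rb, Il27ra and Il17ra had no promoter in the set used here. Each run covers 250 bases before to 50 bases after the start site, 5′ to 3′ on the gene's strand, from RefSeq on GRCm38.p6. Capitals mark matches to the NF-kB motif or to the STAT motif TTCNNNGAA, searched on both strands.
Il2ra, chr2:11642542-11642841, plus strand: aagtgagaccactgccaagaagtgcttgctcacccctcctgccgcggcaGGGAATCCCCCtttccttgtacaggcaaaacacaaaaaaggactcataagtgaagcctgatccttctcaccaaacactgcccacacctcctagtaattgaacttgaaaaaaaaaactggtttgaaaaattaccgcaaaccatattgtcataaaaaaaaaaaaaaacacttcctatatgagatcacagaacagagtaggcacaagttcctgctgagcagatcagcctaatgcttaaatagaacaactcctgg
Il2rg, chrX:101268206-101268505, minus strand: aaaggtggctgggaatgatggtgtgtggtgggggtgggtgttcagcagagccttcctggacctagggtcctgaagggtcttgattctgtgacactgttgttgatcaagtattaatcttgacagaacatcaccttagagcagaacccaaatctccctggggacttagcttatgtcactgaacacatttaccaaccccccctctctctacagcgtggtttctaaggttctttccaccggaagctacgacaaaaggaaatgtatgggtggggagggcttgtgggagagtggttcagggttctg
Il18rap, chr1:40515112-40515411, plus strand: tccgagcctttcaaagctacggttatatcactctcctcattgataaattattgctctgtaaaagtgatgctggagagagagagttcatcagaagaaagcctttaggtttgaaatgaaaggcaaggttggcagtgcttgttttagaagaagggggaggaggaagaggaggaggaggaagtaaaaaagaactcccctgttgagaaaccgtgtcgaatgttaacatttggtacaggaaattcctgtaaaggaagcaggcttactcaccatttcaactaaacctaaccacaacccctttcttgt

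The Il2ra promoter held 2 overlapping matches to the NF-kB motif, starting 201 and 200 bases before the start site, and 0 to the STAT motif. The promoters of Il2rg and Il18rap held 0 matches to either. Of 32851 promoters of this length in the table, 8.46% held the NF-kB motif and 8.3% the STAT motif, and of the 67 promoters of the genes described here (55 genes matched) 10.4% and 13.4%. A match is a run of letters, not a measured binding site.

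The 3 chains of the IL-2 receptor differed in direction. Il2ra, the alpha chain (chromosome 2, 11642807 to 11693193 on GRCm38), stood at 34.7, 24.4, 49.9, 36.4 and 21.2 CPM in CD36-positive libraries 1, 2, 3, 4 and 7, and at 14.9, 11.2, 6.95, 8.98 and 6.94 CPM in CD36-negative libraries 1, 2, 4, 7 and 8. The groups did not overlap, and the lowest value with CD36 exceeded the highest without it. The means were 33.3 ± 11.4 and 9.81 ± 3.37 CPM (SD, n = 5 in both groups), which gave a log2 fold change of 1.76 (SE 0.32, 95% interval 1.10 to 2.43, edgeR adjusted p = 0.00172). It remained called when any 1 library was left out, at 1.57 to 1.96.

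Il2rb, the beta chain that IL-2 and IL-15 receptors share (chromosome 15, 78479256 to 78495271), was close to absent from CD36-positive cells, with 7 counts in library 1, 1 in library 3 and 0 in the other 3 libraries. CD36-negative libraries 1, 2, 4, 7 and 8 held 914, 191, 116, 217 and 227 counts, or 78.4, 19.2, 11.9, 22.7 and 19.0 CPM. CD36-negative library 1 was the highest by far, yet the lowest of its group was still above all CD36-positive libraries. The log2 fold change was -7.09 (SE 0.90, interval -9.0 to -5.19, edgeR adjusted p = 6.82e-05), -9.58 when CD36-positive library 1 was left out and -6.28 when CD36-negative library 1 was; it passed both times.

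Il2rg, the common gamma chain that receptors for IL-2, IL-4, IL-7, IL-9, IL-15 and IL-21 share (X chromosome, 101264378 to 101268255), ranged from 17.3 to 112 CPM in CD36-positive libraries (median 75.5) and from 76.4 to 185 CPM in CD36-negative ones (median 106). The groups overlapped, and the log2 fold change of -0.73 (interval -1.48 to 0.01, edgeR adjusted p = 0.241) did not pass. Its exons share 728 bases with the annotated gene Gm20489 on the same strand, so its count is uncertain to that extent. Per kilobase of merged exons, Il2ra was above Il2rb in the 2 CD36-positive libraries in which Il2rb had a count, and its level was 0.143 to 0.440 times that of Il2rb in the CD36-negative libraries. On the same scale the ratio of Il2ra to Il2rg was 0.109 to 0.839 in CD36-positive and 0.0223 to 0.0511 in CD36-negative libraries, so the gamma chain transcript exceeded the alpha chain transcript in all 10.

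**Figure D2:**
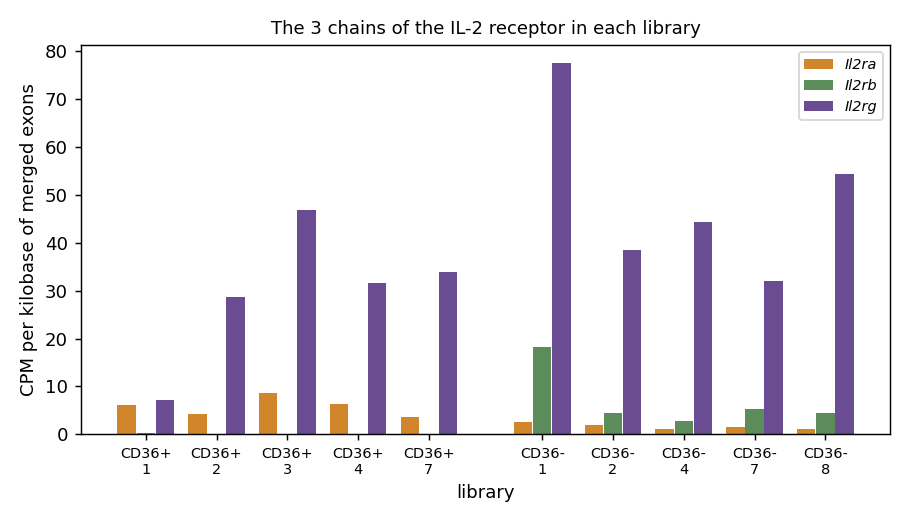
Level of the 3 IL-2 receptor chain genes in each library, in CPM per kilobase of merged exons (bars from 0). Il2rg is the tallest bar in all 10 libraries, Il2rb is visible in the 5 CD36-negative libraries with library 1 highest, and Il2ra is taller in the 5 CD36-positive libraries.

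The other receptors of this family did not pass. Il7r, the IL-7 receptor chain of lymphocytes and some myeloid cells, was at 19.4 ± 7.18 against 29.0 ± 12.7 CPM (log2 fold change -0.58, interval -1.29 to 0.13). Il21r, the receptor of the T cell cytokine IL-21, was at 59.9 ± 24.9 against 69.6 ± 23.4 CPM (-0.22, interval -0.81 to 0.38). Il15ra, which presents IL-15 to neighbouring cells, was at 12.4 ± 4.83 against 13.8 ± 7.04 CPM (-0.15, interval -1.09 to 0.79). Il9r fell under the filter with 11 counts over the CD36-positive and 54 over the CD36-negative group. The intervals of Il7r and Il15ra include a level 2-fold lower in CD36-positive cells, and that of Il21r does not.

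Il18rap, the accessory chain that the IL-18 receptor needs to signal (chromosome 1, 40515362 to 40551705), was lower in CD36-positive cells. It stood at 6.70, 1.35, 9.17, 4.39 and 2.61 CPM in CD36-positive libraries 1, 2, 3, 4 and 7, against 30.8, 28.5, 30.5, 17.5 and 19.8 CPM in CD36-negative libraries 1, 2, 4, 7 and 8. The groups did not overlap. The means of 4.85 ± 3.14 and 25.4 ± 6.28 CPM gave a log2 fold change of -2.41 (SE 0.44, interval -3.34 to -1.48, edgeR adjusted p = 0.00198), which was -3.19 without CD36-positive libraries 1 and 3. Its partner Il18r1, the ligand-binding chain encoded next to it (40465552 to 40500854), had 30, 16, 22, 14 and 7 counts in the CD36-negative libraries and 0, 1, 0, 8 and 0 in the CD36-positive ones. That is 89 counts against 9, under the filter; a fit that kept every gene gave a log2 fold change of -2.96 that did not pass (edgeR adjusted p = 0.260). Il18r1 reached the filter and passed as lower in the fit without CD36-positive library 4, which held 8 of the 9 counts.

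Of the other tested receptors of the IL-1 type, neither Il1rl1 nor Il1rl2 passed. Il1rl1, which encodes the IL-33 receptor ST2, was at 3.61 ± 2.11 against 3.68 ± 2.43 CPM (log2 fold change -0.04, interval -1.49 to 1.42), an interval too wide to tell. Il1rl2, the receptor of IL-36, was at 27 ± 9.02 against 27.9 ± 7.32 CPM (-0.05, interval -0.63 to 0.53). Both lie in the same cluster of chromosome 1 as Il18r1 and Il18rap. Of the genes with Il1f symbols, Il1f9 (IL-36 gamma) ranged from 1.03 to 5.77 CPM in CD36-positive and from 0.906 to 11.6 CPM in CD36-negative libraries and did not pass. Il1f6 and Il1f10 were at 0, and Il1f5 and Il1f8 had 1 count each.

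Il27ra, the private chain of the IL-27 receptor, which signals together with gp130 (chromosome 8, 84030294 to 84042589), had no count in any CD36-positive library. The CD36-negative libraries 1, 2, 4, 7 and 8 held 41, 22, 36, 30 and 33 counts, 3.52, 2.22, 3.68, 3.13 and 2.76 CPM. With 162 counts against 0, it was at least 44.4-fold lower per total count, taking 3 counts for the whole group as the floor (edgeR adjusted p = 0.00154). Low as this level was, no CD36-negative library lacked the transcript, and their spread was narrow (SD 0.593 around a mean of 3.06 CPM). Il27, which encodes a subunit of its ligand, was at 2.77 ± 1.75 against 3.18 ± 0.867 CPM and did not pass (log2 fold change -0.19, interval -1.68 to 1.3). Ebi3, the other subunit of IL-27 and not itself an Il symbol, was at 45.8 ± 8.44 against 68.8 ± 12.3 CPM (-0.59, edgeR adjusted p = 0.0905) and did not pass.

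Il6st, which encodes gp130, the signalling chain for IL-6, IL-11 and IL-27, came closest to the threshold among the genes that did not pass. Its levels were 30.7, 27.3, 53.6, 67.8 and 57.9 CPM in CD36-positive libraries 1, 2, 3, 4 and 7 and 49.2, 64.3, 88.1, 96.7 and 137 CPM in CD36-negative libraries 1, 2, 4, 7 and 8. The groups overlapped at CD36-negative libraries 1 and 2. The log2 fold change was -0.87 (SE 0.30, interval -1.50 to -0.25, edgeR adjusted p = 0.0876), and it passed with the DESeq2 Wald test (-0.87, adjusted p = 0.0386) and with edgeR and no filter on low counts (-0.88, adjusted p = 0.0324). Il6ra, the IL-6 binding chain, was at 118 ± 50 against 148 ± 43.7 CPM (-0.33, interval -0.90 to 0.24). Il11ra1, the IL-11 binding chain, was at 42.5 ± 9.82 against 39.6 ± 5.70 CPM (0.10, interval -0.35 to 0.56); it has a close copy, Il11ra2, with which it may share reads. The ligand gene Il6 had 6 counts, all in CD36-positive library 3, and 15 counts in 2 CD36-negative libraries.

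Il17ra, the chain that several receptors of the IL-17 family share (chromosome 6, 120463247 to 120487559), was lower in CD36-positive cells by a smaller margin. It stood at 119, 91.1, 70.9, 106 and 88.7 CPM in CD36-positive libraries 1, 2, 3, 4 and 7 and at 126, 145, 167, 161 and 195 CPM in CD36-negative libraries 1, 2, 4, 7 and 8. The groups did not overlap, though CD36-positive library 1 and CD36-negative library 1 lay close together. The means of 95.1 ± 18.2 and 159 ± 25.7 CPM gave a log2 fold change of -0.74 (SE 0.19, interval -1.13 to -0.35, edgeR adjusted p = 0.0206). It did not pass in edgeR without CD36-negative library 4 (adjusted p = 0.0530) or library 8 (adjusted p = 0.0658), nor with the replicate number as a block. Of the other IL-17 receptor genes none had over 26 counts in a group, and of the IL-17 ligands Il17a and Il25 were at 0 in all libraries.

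**Figure D3:**
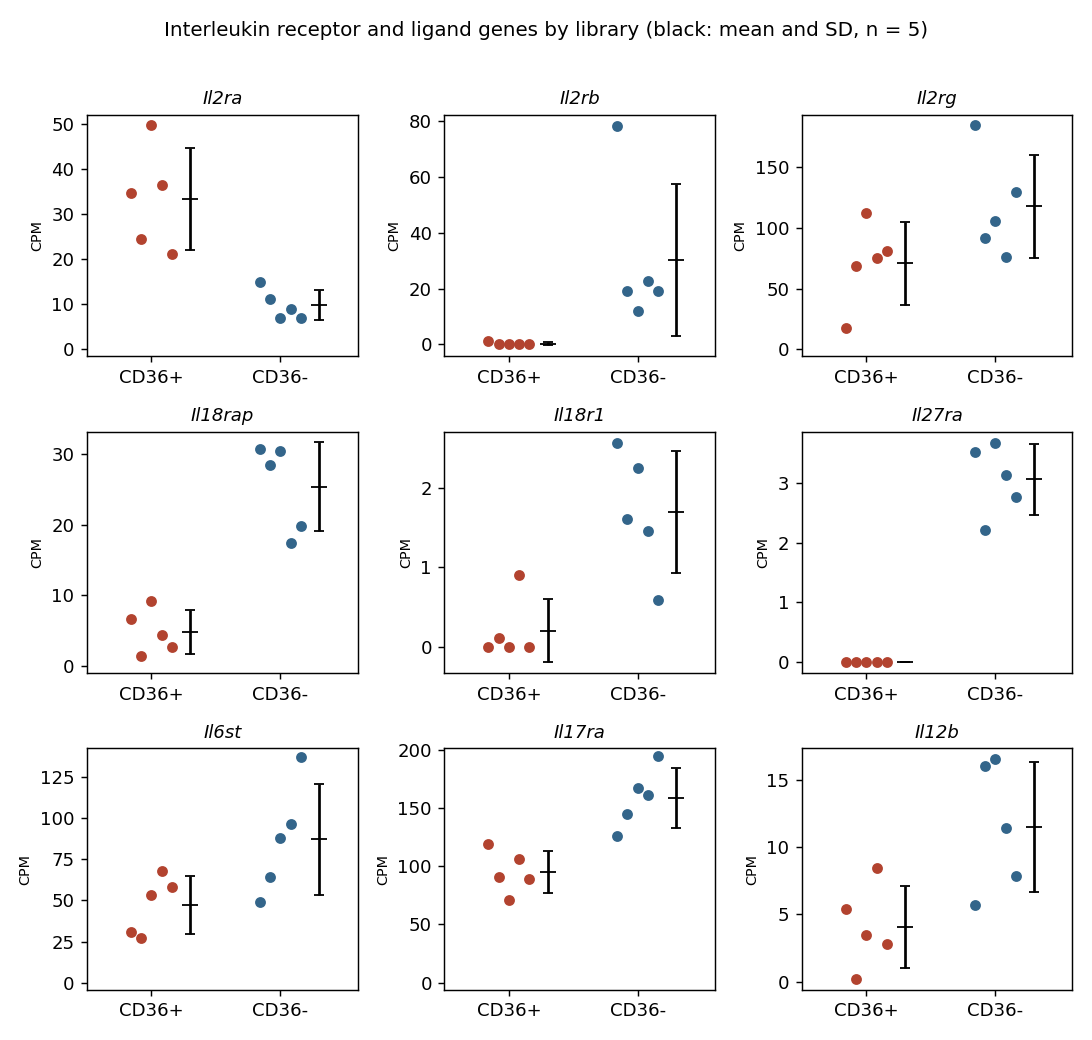
CPM in each library (points) with the mean and SD of each group (black, n = 5) for 9 receptor and ligand genes, each on its own linear axis. The groups do not overlap for Il2ra, Il2rb, Il18rap, Il27ra and Il17ra, and they overlap for Il2rg, Il18r1, Il6st and Il12b.

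The most abundant transcripts among these genes were the 2 chains of the IL-10 receptor, which passes on the main anti-inflammatory signal to macrophages, and neither passed. Il10ra had 415 ± 139 CPM with CD36 and 451 ± 62.8 CPM without it (log2 fold change -0.12, interval -0.58 to 0.34). Il10rb had 309 ± 105 and 262 ± 48.5 CPM (0.24, interval -0.25 to 0.72). Both intervals leave out a change of 2-fold. Within each library the ratio of Il10ra to Il10rb, both per kilobase of merged exons, was 1.34 to 1.66 in CD36-positive and 1.70 to 2.06 in CD36-negative libraries; these ranges do not overlap, and as 1 of 8 chain ratios computed this one was picked after its values were seen and was not tested. Il10rb shares 569 exon bases with the annotated gene Gm21970. Il10 itself had 60 counts over the CD36-positive group (0, 9, 24, 1 and 26 in libraries 1, 2, 3, 4 and 7) and 36 over the CD36-negative group, under the filter.

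Per kilobase of merged exons, averaged over the 10 libraries, Il10ra was at 124 ± 29.6 CPM and Il10rb at 74.9 ± 21.2 CPM (SD, n = 10). Il13ra1 (50.7 ± 15.5), Il2rg (39.6 ± 18.5) and Il4ra (33.5 ± 6.67) followed, with overlapping spreads. These spreads are taken across libraries and do not compare genes within a library. Within each library Il13ra1 was above Il4ra. The ratio of Il4ra to Il13ra1 was 0.547 to 0.966 in CD36-positive and 0.464 to 0.848 in CD36-negative libraries. Il21r (19.5 ± 7.02), Il6ra (15.4 ± 5.45), Il17ra (14.7 ± 4.57) and Il16 (13.8 ± 3.0) formed the next group, again with overlapping spreads. Of the called genes other than Il17ra, Il2ra was at 3.78, Il2rb at 3.56, Il18rap at 2.24 and Il27ra at 0.438 CPM per kilobase, as means over both groups. By group, with CD36 and without it, Il2ra was at 5.84 and 1.72, Il2rb at 0.0675 and 7.05, Il18rap at 0.718 and 3.77 and Il27ra at 0 and 0.876 CPM per kilobase.

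The receptor chains of IL-4 and IL-13, cytokines that turn macrophages to repair and lipid uptake, were abundant and did not pass. Il4ra, which both receptors share, ranged from 127 to 245 CPM in CD36-positive and from 182 to 248 CPM in CD36-negative libraries, with a log2 fold change of -0.11 (interval -0.53 to 0.30). Il13ra1, which pairs with it, was at 162 ± 63.8 against 214 ± 40.9 CPM (-0.40, interval -0.91 to 0.10). The decoy Il13ra2 had 1 count over the CD36-positive and 2 over the CD36-negative group. Il4ra shares 571 exon bases with the annotated gene Gm44876 on the opposite strand. Of the ligands, Il13 was at 0 in all libraries and Il4 had 8 counts, all in 2 CD36-negative libraries. Il33, an alarmin of glia and stroma, had 57 counts over the CD36-negative group, 53 of them in library 2, and 14 over the CD36-positive group, 13 of them in library 3.

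Among the ligands, Il16, a chemoattractant for CD4-bearing cells made as a long precursor, was the most abundant. It ranged from 54.0 to 115 CPM in CD36-positive and from 105 to 137 CPM in CD36-negative libraries (log2 fold change -0.38, interval -0.81 to 0.04, edgeR adjusted p = 0.293) and did not pass; 1368 of its exon bases lie opposite exons of other genes. Il15, which sustains NK cells and memory T cells, was at 15.5 ± 6.22 against 12.3 ± 4.10 CPM (0.33, interval -0.43 to 1.09) and did not pass.

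Il12b, the p40 subunit that IL-12 and IL-23 share, had 5.40, 0.226, 3.44, 8.45 and 2.77 CPM in CD36-positive libraries 1, 2, 3, 4 and 7 and 5.66, 16, 16.5, 11.4 and 7.86 CPM in CD36-negative libraries 1, 2, 4, 7 and 8. CD36-positive library 4 lay above CD36-negative libraries 1 and 8. Its log2 fold change of -1.50 (SE 0.63, interval -2.84 to -0.17) had an unadjusted p of 0.0296 and an edgeR adjusted p of 0.173, so it did not pass. The subunits that would complete the cytokines were scarce: Il12a (p35) was at 0 in all libraries and Il23a (p19) had 2 counts, both in CD36-negative library 1. Il12rb2, a chain of the IL-12 receptor, had 29 counts over the CD36-positive and 265 over the CD36-negative group (log2 fold change -2.63, interval -4.86 to -0.40, edgeR adjusted p = 0.153); it passed as lower in the fit without CD36-positive library 1. Its exons share 1519 of 3794 bases with Serbp1 on the opposite strand, and no source used here says that the counting used strand, so reads from that shared stretch cannot be told from those of Serbp1. Il12rb1 was at 2.59 ± 2.68 against 2.35 ± 0.752 CPM and did not pass.

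Genes of the same pathways that carry other names were counted from lists. Of 14 tested partner chains and related cytokines out of 21, 0 rose and 2 fell (median log2 fold change -0.35), against 2.61% and 4.74% of all genes tested (median 0.02). Csf2rb, the beta chain shared by the IL-3, IL-5 and GM-CSF receptors, was at 166 ± 34.4 against 293 ± 32.4 CPM (-0.82, SE 0.18, edgeR adjusted p = 0.00708), and its close copy Csf2rb2 (-0.27) may share reads with it. Crlf2, the chain that joins Il7r in the TSLP receptor, was at 26.6 ± 6.03 against 46.6 ± 5.62 CPM (-0.81, SE 0.22, edgeR adjusted p = 0.0303); it did not pass in 6 of the 10 fits that left out 1 library (CD36-positive 2 or 3, CD36-negative 1, 2, 4 or 7), nor with the replicate number as a block (adjusted p = 0.106).

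Of 32 kinases, STAT factors and regulators of interleukin signalling, all tested, 0 rose and 7 fell (median -0.31). Over all genes tested, 2.61% were higher and 4.74% lower (median 0.02). Stat4, which IL-12 activates, was at 0.146 ± 0.141 against 25.3 ± 2.31 CPM (log2 fold change -7.21, SE 0.56). Stat4 reached the filter on low counts only through the CD36-negative libraries. Jak2 was at 40.3 ± 12.1 against 137 ± 21.1 CPM (-1.77, SE 0.21). Stat5a and Stat5b, the factors downstream of the IL-2 receptor beta chain, were at 13.8 ± 4.82 against 48.4 ± 11.4 CPM (-1.81, SE 0.28) and 34.1 ± 4.79 against 68.4 ± 7.76 CPM (-1.0, SE 0.19). Their counts held fractions, such as 119.38 and 301.62 in CD36-positive library 2, so Stat5a and Stat5b may share reads and need not be separate falls. The adjusted p-values of Stat4, Jak2, Stat5a and Stat5b in edgeR were 1.02e-06, 3.91e-05, 0.000432 and 0.00223. Tyk2, Stat3 and Socs2 were the other 3 that fell, while Jak1 (-0.05), which most of these receptors use, and Stat6 (-0.28), which IL-4 activates, did not pass.

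Many, though not all, markers of other leukocytes fell along with Il2rb, Il18rap, Il27ra, Il17ra and Stat4. In bulk samples, fewer cells of a type and less RNA per cell cannot be told apart. Over all genes tested, 2.61% were higher and 4.74% lower. Several of these markers reached the filter on low counts almost only through the CD36-negative libraries. Among them were Cd3g, Cd247, Cd2, Thy1, Gzmb, Nkg7, Ncr1, Retnlg, Cxcr2, Mmp8, Mmp9, Ccl17, Clec9a, Itgae and Kit. Such genes could hardly come out as higher, so the counts of markers below describe the genes that passed the filter. Of 10 tested markers of T, NK and innate lymphoid cells 8 fell. The summed level of the 17 in the table was 14.0 to 39.1 CPM in CD36-positive and 125 to 421 CPM in CD36-negative libraries. Rora, which did not pass, made up 8.8 to 32 CPM of the sums with CD36 and 11.3 to 17.4 CPM of those without it. Prf1 was at 0 in the CD36-positive group. CD36-negative library 1, the highest for Il2rb, had a sum of 401 CPM and library 2, with 19.2 CPM of Il2rb, one of 421 CPM. Single markers of this list differed in that respect: Gzma was at 42.4 CPM in library 1 and 120 CPM in library 2, while Gzmb (73.8 and 43.3 CPM) and Lck (41.6 and 15.5 CPM) were highest in library 1, as Il2rb was. Of 12 dendritic cell markers 11 fell (38.4 to 102 against 762 to 1135 CPM, none at 0). Batf3, which did not pass, made up 8.88 to 31.3 CPM of the sums with CD36. Of 7 tested neutrophil markers 6 fell (83.7 to 194 against 304 to 845 CPM for the 11 in the table), with Retnlg, Ly6g and Ngp at 0 in the CD36-positive group. Ly6g and Ngp had only 13 and 9 counts over the CD36-negative group, and Camp had 21 with CD36 and 13 without it. Csf3r, the one that did not pass, made up 65.1 to 175 CPM of the sums with CD36.

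Of 10 monocyte markers 7 fell (489 to 972 against 1285 to 2354 CPM, none at 0); Ccr2 (255 to 704 CPM with CD36) and Fn1 (129 to 527 CPM) did not pass. Of 3 tested markers of mast cells, basophils and eosinophils 2 fell, Kit and Siglecf (7.26 to 21.9 against 84.5 to 165 CPM for 9 genes). Cpa3, Mcpt4 and Prg2 were at 0 in the CD36-positive group but scarce without CD36 too. Mcpt4 was at 0 in all 10 libraries, and Cpa3 had 22 counts over the CD36-negative group. Prg2 had 37 there, 36 of them in library 2. The tested B cell markers, 2 in number, did not pass. Of 8 photoreceptor markers 2 fell (110 to 951 against 391 to 2375 CPM), and of 5 tested Müller glia and astrocyte markers 1 fell, Clu (9863 to 30614 against 15895 to 21525 CPM for the 7, Apoe of macrophages included). The part of these cells in the lower receptor levels was not tested.

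**Figure D4:**
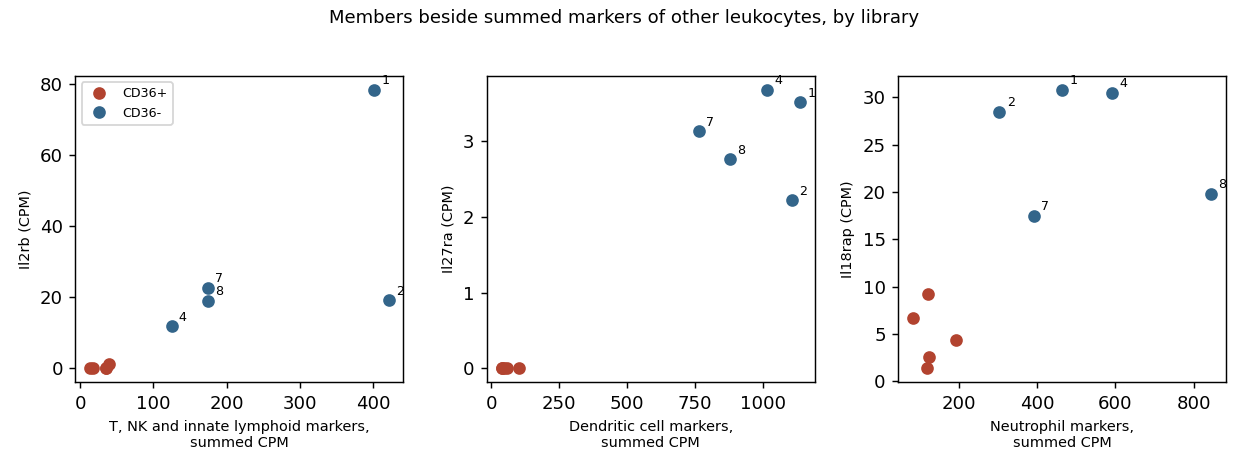
Il2rb, Il27ra and Il18rap (CPM, vertical) beside the summed CPM of markers of T, NK and innate lymphoid cells, dendritic cells and neutrophils (horizontal), 1 point per library, CD36-negative points with their number. In each panel the 5 CD36-positive libraries lie at the lower left, apart from the 5 CD36-negative ones; within the CD36-negative group, Il2rb is highest in library 1, at a lymphoid marker sum of 401 CPM against 421 CPM in library 2.

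The libraries also fell into 2 classes by the summed level of the Y-linked genes Ddx3y, Eif2s3y and Kdm5d: CD36-positive 1, 2 and 3 and CD36-negative 1 and 2 held 184 to 324 CPM, and the other 5 held 18.4 to 57.6 CPM. Each class held both groups. Within the high class the log2 fold changes were -6.88 for Il2rb, -7.65 for Il27ra, 1.42 for Il2ra, -2.42 for Il18rap and -0.58 for Il17ra, of which only Il2rb passed (3 against 2 libraries). Within the low class they were -10.56, -8.08, 1.91, -2.70 and -0.84 in the same order, and all 5 passed. Csf2rb, Crlf2 and Stat5b did not pass within either class. The fitted values of Il2rb in the low class and of Il27ra are set against groups with no counts and are no measure of size.

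Many interleukin genes were near or under the limit of detection. The genes at 0 in all 10 libraries were Il9, Il12a, Il13, Il17a, Il20, Il25, Il31, Il1f6 and Il1f10, each of them a ligand. The 35 genes with counts but under the filter had totals from 1 (among them Il1f5) to 98 (Il18r1), and 20 of them are ligands and 15 receptors. Il7, which supports lymphocyte survival, had counts in all 5 CD36-negative libraries (5 to 15) and in 2 CD36-positive ones (3 and 4). Receptors of the IL-20 and IL-22 group were as scarce: Il20ra, Il20rb, Il22ra1 and Il22ra2 had 9, 15, 5 and 13 counts over the CD36-positive group and 2, 33, 22 and 17 over the CD36-negative group.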

How the data were processed

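The 10 libraries came from cells of the mouse retina sorted by CD36, 5 with and 5 without it. The authors deposited 1 table of expected counts per gene (estimated counts, 91.9% of them whole numbers). Reads were processed with HISAT2 2.1.0, StringTie 1.3.1, Bowtie2 2.2.8 and fastp 0.18.0 on mm10, per the submitters' processing notes, which give no order; the counting program and its use of strand are not given in the sources used here. Of 22008 lines, 8 broken lines and 131 exact repeats were dropped, which left 21866 symbols; 25 symbols had been turned into dates, and 3 stood on 2 lines, none of them an interleukin gene.

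Counts were rounded and tested in R 4.3.3 with edgeR 4.0.16 (quasi-likelihood test, TMM scaling, filterByExpr with a minimum count of 10, corresponding to 1.04 CPM, Benjamini-Hochberg adjustment at 0.05 over 11594 genes). CPM used TMM-scaled library sizes, and levels between genes were divided by merged exon length (GENCODE M21, GRCm38). Promoters came from RefSeq (GRCm38.p6). The fit was tested on simulated data. Libraries of a group differed by more than counting noise (23.3 to 116 in chi-square per degree of freedom). The alternatives tried were DESeq2 1.42.0, limma 3.58.1, other filters and scaling, libraries left out, the replicate number as a block, and, chosen after seeing the data, Y-linked level.

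The genes named are the called ones, the 10 tested ones with the highest mean CPM, a list of receptors and ligands kept whatever their values, and up to 4 partner and 4 signalling genes with the smallest p; the remaining names were picked with their values in view. The genes, lists and tests were chosen with earlier results of these data known.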

Additional observations from a re-analysis of the deposited data

Results flagged for a closer look

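In 48 groups of 5 libraries (24 genes in the 2 sorted populations), 8 single libraries lay far from the other 4. Their gap over the whole range was above Dixon's critical value of 0.71. Chance gives about 1 in 20 groups for normally spread values only. Near 0 that rate does not hold, since counts in 1 library set the gap. Il23a, Il6, Il33, Il18r1 and, in CD36-positive cells, Il2rb are of this kind, so the 8 are no measure of an excess. Il2rb was at 78.4 CPM in CD36-negative library 1, where the others held 11.9 to 22.7 CPM, and at 1.3 CPM in CD36-positive library 1, where the others held 0 to 0.143 CPM. Il13ra1 was lowest in CD36-negative library 2 at 143 CPM, against 218 to 243 CPM in the others. Il18r1 was at 0.901 CPM in CD36-positive library 4 (others up to 0.113 CPM), and Il6 was at 0.860 CPM in CD36-positive library 3, with 0 in the others. Il33 was at 1.86 CPM in CD36-positive library 3 (others up to 0.113 CPM) and at 5.34 CPM in CD36-negative library 2 (others up to 0.343 CPM). Il23a was at 0.172 CPM in CD36-negative library 1, with 0 in the others.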

How the results depend on the processing

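No called gene changed direction under any alternative. Of the genes not called, Il10ra, Il15, Il15ra, Il1rl1, Il21r and Il4ra changed sign under 2 to 7 alternatives each, where the values with the changed sign were between -0.60 and 0.42. The number of interleukin genes called higher was 1 and lower 3 to 5 under all alternatives except within the libraries of high Y-linked level (3 against 2), where 0 were higher and 1 was lower. Over all genes, 303 were higher and 550 lower; the higher count was 533 with the DESeq2 Wald test, 187 without CD36-positive libraries 1 and 3, 90 at an adjusted p of 0.01, and 33 and 137 within the high and low Y-linked classes, and the lower count was 330 at an adjusted p of 0.01 and 215 within the high class. Leaving out 1 library at a time gave 132 (without CD36-negative library 4) to 380 higher and 422 to 576 lower genes; 195, 183 and 197 were higher without CD36-positive library 3, CD36-negative library 7 and CD36-negative library 8. The causes were not tested. With the replicate number of the columns as a block over the 4 shared numbers, 1 interleukin gene was higher and 3 lower (Il17ra did not pass, -0.57, edgeR adjusted p = 0.153, nor did the partner chain Crlf2), the median of the tested genes was -0.49 and 181 genes were higher. Libraries of the same number correlated weakly in their deviations (0.0287 to 0.133 over 4 pairs), though 6 of 8 libraries were closest to their own number. Each shared number also had the same Y-linked class in both groups, high for 1 and 2 and low for 4 and 7. Nothing in the labels ties the numbers to animals, so the main fit did not take them as pairs. Whether they are pairs is not known. Depth limits the 35 genes under the filter, for which only counts are given.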

Other observations

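Several scarce interleukin genes had nearly all of their counts in 1 or 2 libraries. Il5, a growth factor of eosinophils, had 31 counts in CD36-positive library 1 and 0 in the other 9 libraries. Il17f had 22 counts in CD36-positive library 3 and 5 in library 4, and 0 in the CD36-negative group. Il22ra1, a receptor chain of epithelial cells, had 22 counts in CD36-negative library 8, and Il23r, a receptor of IL-17-producing lymphocytes, had 22 in CD36-negative library 7 and 7 in library 2, against 2 over the CD36-positive group. Il17rc had 26 counts in CD36-positive library 2 and 21 spread over 4 CD36-negative libraries.

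Il1rapl1, a synaptic member of the IL-1 receptor family, was detected in 5 of 5 CD36-positive libraries with 30 counts (1 to 15 each) and in 3 of 5 CD36-negative libraries with 4 counts. With no filter on low counts its log2 fold change of 3.11 did not pass (edgeR adjusted p = 0.306). These genes were picked after their counts were seen.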
